A study of Ovis aries with 3 samples.

Results

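Erythroid cells, the red cell precursors of the early sheep embryo, were taken from 3 single-cell RNA libraries by a rule on 2 transcripts. A cell was kept if it held 200 to 6000 genes, 1000 to 30000 unique molecular identifiers (UMIs, each standing for 1 captured transcript) and at most 10% of UMIs on mitochondrially encoded genes. A kept cell was called erythroid if it had at least 5 UMIs of *AHSP* (ENSOARG00020024635), which encodes the chaperone of free alpha globin, and at least 2 of *ALAS2* (ENSOARG00020023746), which encodes the erythroid enzyme of the committed step of heme synthesis. Of 31576 kept cells, 5610 met this rule. Since *AHSP* and *ALAS2* chose the cells, their levels describe the cells and support nothing.

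The first red cells of a mammal arise in the yolk sac, enter the circulation as nucleated cells and mature there together. *GATA1* and *KLF1* switch on the globins, the enzymes of heme synthesis, the carriers of iron and the proteins of the red cell membrane, and as hemoglobin fills the cell, ribosome production, division and most other transcription run down. A whole embryo of this age therefore gives circulating precursors beside the tissues that they pass through.

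The libraries came from whole embryos of Hulunbuir short-tailed sheep (HSTS) at embryonic day 19 (E19 HSTS), Hu sheep (HS) at day 19 (E19 HS) and Hu sheep at day 16 (E16 HS). According to the paper, all HSTS rams and ewes genotyped carried a missense mutation of *T* on both alleles, and all those of HS the wild type. It shows no separate genotype of the sequenced embryos. At E19 breed and mutation cannot be told apart. Each condition is 1 library, made from 1 embryo at E19. For E16 HS the labels speak of 1 embryo and the paper of 3, and it is not known whether these were pooled. No spread between embryos can be measured, so no test was made, and all intervals cover counting error only. The protocol included a step that lyses red blood cells, and its effect on the erythroid share was not tested.

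The deposited barcodes summed to between 94754580 and 128271878 UMIs per library. Of these, erythroid cells of E19 HSTS gave 44505441, those of E19 HS 24342709 and those of E16 HS 27356148. Where 3 values follow each other below, they stand for E19 HSTS, then E19 HS, then E16 HS. Kept cells of any pair of libraries shared between 31 and 37 barcodes, of which at most 2 were erythroid in both. *GAPDH*, a glycolytic enzyme, had 6.68 CPM (UMIs per 1000000 UMIs) in the other kept cells of E19 HSTS against 1879 CPM in those of E19 HS, and *RPS6*, a ribosomal protein, had 3229 against 951 CPM. Their values in erythroid cells, given below, moved with the whole library.

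Erythroid cells were a larger share of the E19 HSTS library than of the Hu sheep libraries. They were 2448 of 9618 kept cells in E19 HSTS, or 25.5% (exact binomial 95% interval 24.6 to 26.3%). In E19 HS they were 1305 of 10629, or 12.3% (11.7 to 12.9%), and in E16 HS 1857 of 11329, or 16.4% (15.7 to 17.1%). The counting intervals did not overlap, but the difference between single embryos has no replicate check. The rule depends on depth. With each kept cell thinned to 3000 UMIs before the rule, the shares were 4.76%, 1.91% and 5.71%, and E16 HS then stood above E19 HSTS. With at least 1 UMI of each transcript asked of the thinned cells, an alternative chosen after seeing the data, the shares were 22.8%, 8.97% and 14.5%, in the order of the unthinned rule.

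Erythroid cells carried far more RNA than the cells around them, but over no more genes. Their median depth was 18072, 18210 and 14531 UMIs, where the rest had 7200, 6380 and 8048. Their median number of genes was 1482, 1570 and 1919, where the rest had 1807, 1570 and 1976. Mitochondrially encoded transcripts took 1.22%, 1.45% and 2.00% of the UMIs of the median erythroid cell, against 3.10%, 2.92% and 2.68% elsewhere. Erythroid cells therefore gave 44.7%, 27.4% and 24.2% of all UMIs of the kept cells, well above their shares of cells. The rule asks for a number of UMIs and so favours deep cells. Excluded cells with 2 to 4 *AHSP* UMIs and enough *ALAS2* had median depths of 7561.5, 8442 and 3240 UMIs. The depth is thus in part set by the rule.

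Much of this RNA came from 4 genes that the files list by identifier, with no symbol. The leading pair were ENSOARG00020015536 and ENSOARG00020004314. What the 4 encode is not paired with them in the files and is not stated here. Summed over the erythroid cells, they took 56.0%, 52.6% and 35.5% of UMIs. In the other kept cells they took 1.92%, 1.32% and 1.12%. Within the 4, ENSOARG00020015536 gave 42.8%, 46.2% and 40.9% of their UMIs, and ENSOARG00020004314 gave 26.6%, 20.4% and 27.5%. Among the UMIs of the 4 genes in the other kept cells, ENSOARG00020015536 gave 43.8% and 46.4% at E19, near its part in the erythroid cells. At E16 it gave 45.9%, above its part there. These sums include 227, 134 and 238 cells with at least 10% of their UMIs on the 4 genes. They therefore do not describe the remaining cells alone.

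**Figure D1:**
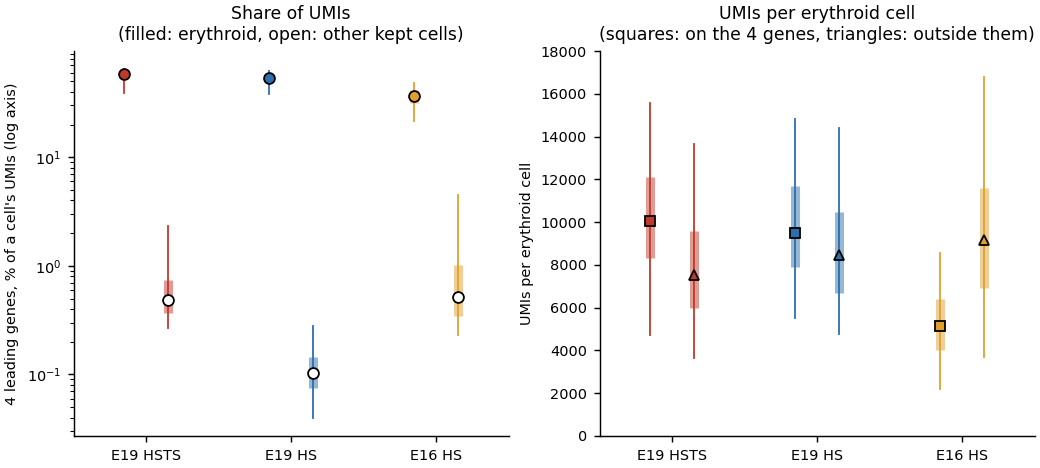
Left: percent of a cell's UMIs on the 4 leading genes (log axis) in erythroid cells (filled) and other kept cells (open) of each library. Right: UMIs per erythroid cell on the 4 genes (squares) and outside them (triangles). Points are medians over cells, bars run from the 25th to the 75th percentile and lines from the 5th to the 95th. The erythroid medians of 58.0%, 54.0% and 36.7% stand far above the other cells' medians of 0.481%, 0.104% and 0.516%.

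Cell by cell, the 4 genes set erythroid cells apart by a wide gap. The median share was 58.0% (5th to 95th percentile 39.2 to 65.5%), 54.0% (38.6 to 62.5%) and 36.7% (21.7 to 48.5%). Among the other kept cells the 95th percentile was 2.33%, 0.278% and 4.48%. Asking for at least 10% of UMIs on the 4 genes instead of *AHSP* and *ALAS2*, again an alternative chosen after seeing the data, took 2675, 1439 and 2087 cells. These included 100% of the erythroid cells at E19 and 99.6% of those of E16 HS, and added 227, 134 and 238 cells. Between 5 and 20% lay 35 and 11 cells at E19 and 324 in E16 HS, so the gap was clear at E19 and partly filled at E16.

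The cells just outside the rule looked much like those just inside it. With 5 to 7 *AHSP* UMIs, 106, 23 and 43 erythroid cells had median shares of 55.1%, 56.2% and 34.6% on the 4 genes. With 2 to 4 *AHSP* UMIs and enough *ALAS2*, 92, 15 and 38 excluded cells had 54.2%, 53.2% and 28.8%. A smaller set differed: the 40 cells of E16 HS with enough *AHSP* and no *ALAS2* UMI had a median of 13.2%. Some of the other kept cells are thus as rich in the 4 genes as the erythroid cells.

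Low counts of erythroid transcripts were also found where they should be lacking. *AHSP* had a UMI in 8.09% of 692 cells with both *SOX2* and *PAX6*, markers of neural cells, in E19 HSTS, in 2.55% of 943 in E19 HS and in 22.0% of 387 in E16 HS. Their median depths were 8608, 7908 and 9554 UMIs. The other kept cells as a whole had *AHSP* in 10.1%, 3.05% and 27.1%. Those with an *AHSP* UMI had 82.9, 95.6 and 10.4 CPM of *HEMGN*, a marker that the rule did not use. Those with a *SOX2* UMI as well had 8.72, 3.73 and 4.44 CPM. Detection outside the erythroid cells thus covers cells that the rule missed beside such a background, and the part of each was not tested. Detection alone is not read as expression.

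The label of erythroid cells was checked on markers that the rule did not use. *HEMGN*, a nuclear regulator of red cell differentiation, had 313, 172 and 181 CPM, against 11.1, 4.21 and 4.09 CPM in the other kept cells. *HBM*, the mu globin gene, had 32.6, 79.8 and 39.9 CPM against 0.817, 1.88 and 1.18. *RHAG*, the ammonia channel of the Rh complex, had 35.7, 7.15 and 15.3 CPM against 1.25, 0.109 and 0.676. The lowest erythroid level of each lay above its highest level elsewhere. *HEMGN* was detected in 97.1%, 90.8% and 86.3% of erythroid cells, but *RHAG* in only 45.2%, 12.4% and 19.9%. With each cell thinned to 3000 UMIs *HEMGN* was found in 59.7%, 35.9% and 42.6% of erythroid cells and in 2.31%, 0.664% and 1.15% of the others.

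Against the other kept cells, 126 of 6065 genes were at least 2-fold higher in all 3 libraries (2.08%) and 2500 at least 2-fold lower (41.2%). CPM is a share of a total of which the 4 leading genes hold a large part, and the median gene stood at 0.286, 0.351 and 0.563 of its level elsewhere. Relative to this median gene, 449 genes were higher (7.4%) and 1077 lower (17.8%). As the cells were chosen on genes of the same data, these counts describe them.

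The pathway from glycine to heme was raised almost throughout. Of 13 genes of heme synthesis compared, 10 were at least 2-fold higher than elsewhere in all 3 libraries, where 2.08% of all genes were. Among these was *ALAS2*, which chose the cells, so its excess supports nothing. Only 1 was lower, where 41.2% of all genes were. It was *ALAS1*, the housekeeping form of the first enzyme, at 5.06, 4.23 and 10.2 CPM against 55.0, 49.0 and 48.0. *ALAD*, the second enzyme, had 470, 517 and 575 CPM, which was 9.54, 11.9 and 9.18 times the other cells. *FECH*, which inserts the iron, had 106, 74.0 and 72.4 CPM, or 15.3, 13.8 and 16.6 times. *TMEM14C*, which moves porphyrin precursors into mitochondria, reached 1563, 1432 and 1859.7 CPM. *BLVRB*, the biliverdin reductase abundant in red cells, reached 2289, 1938 and 2407 CPM against 132, 119 and 116 elsewhere.

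**Figure D2:**
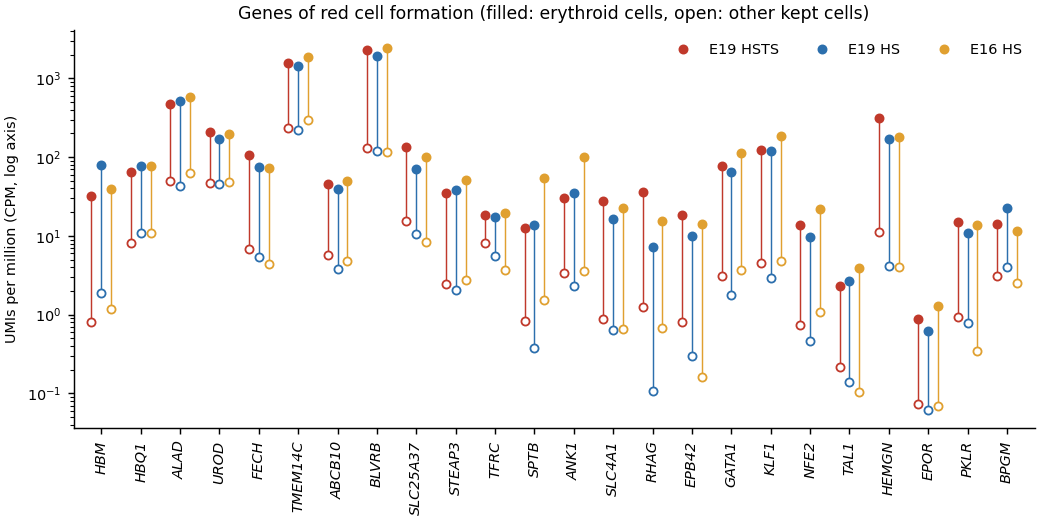
CPM (log axis) of genes of red cell formation in the erythroid cells (filled) and the other kept cells (open) of each library, joined by a line. Each filled point stands above its open point, and for *RHAG*, *SPTB* and *HBM* the filled points of the libraries lie well apart.

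Iron handling was mixed. Of 10 genes compared, 4 were at least 2-fold higher in all libraries, where 2.08% of all genes were, and 1 was lower, where 41.2% were. *FTH1*, the heavy chain of the iron store ferritin, was the leading gene with a symbol, at 19327, 16996 and 17549 CPM. *SLC25A37*, the mitochondrial iron importer mitoferrin, had 135, 69.7 and 102 CPM against 15.4, 10.5 and 8.36. *TFRC*, the transferrin receptor, had only 18.7, 17.5 and 19.5 CPM, or 2.31, 3.10 and 5.26 times the other cells. *ACO1*, the cytosolic aconitase that doubles as an iron sensor, was lower, at 5.73, 5.67 and 10.9 CPM against 41.4, 38.1 and 33.1.

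Of 10 compared genes of the membrane and its skeleton, 7 were at least 2-fold higher in all libraries and none was lower, against the same 2.08% and 41.2% of all genes. *SPTB*, beta spectrin, had 12.8, 13.6 and 54.8 CPM, and *ANK1*, the ankyrin that ties spectrin to the membrane, had 30.2, 34.7 and 100.4. *SLC4A1*, the band 3 anion exchanger, had 28.1, 16.3 and 22.4 CPM. The carbonic anhydrase gene *CA1* had no UMI in the erythroid cells of any library, and *CA2* had 5.33, 6.0 and 7.09 CPM.

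Among 7 compared erythroid transcription factors, *GATA1*, *KLF1*, *NFE2* and *HEMGN* were at least 2-fold higher in all libraries, where 2.08% of all genes were, and 0 were lower. *GATA1* had 77.8, 64.9 and 114 CPM and *KLF1* 123, 119.5 and 183. *TAL1* and *GFI1B* fell below the level needed for comparison, at 2.31, 2.67 and 3.91 CPM for *TAL1*. The erythropoietin receptor gene *EPOR* had 0.876, 0.616 and 1.28 CPM, with a UMI in 1.59%, 1.15% and 1.83% of erythroid cells.

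Genes of earlier blood cells and vessels were nearly missing. *ERG*, an endothelial and stem cell factor, had 0 UMIs in the erythroid cells of each library, while 151, 219 and 85 other cells with both *KDR* and *PLVAP*, 2 endothelial markers, held 23, 21 and 3. *GATA2* had 1, 0 and 0 UMIs, *FLI1* had 2 in each library and *KIT*, the stem cell factor receptor, had 9, 4 and 14. *CD34*, a surface protein of progenitors and vessels, was an exception, at 10.1, 9.04 and 15.0 CPM against 2.65, 2.11 and 0.699 in all other kept cells. The cells with *KDR* and *PLVAP* had 59.4, 52.4 and 12 CPM of *CD34*. *PTPRC*, the CD45 antigen of white cells, had 7, 0 and 0 UMIs in erythroid cells.

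Glycolysis and division ran below the level of the other cells, as did most genes. Of 16 glycolytic genes compared, 10 were at least 2-fold lower in all libraries, where 41.2% of all genes were, and their median of 0.150, 0.208 and 0.386 of the level elsewhere was below the 0.286, 0.351 and 0.563 of the median gene. In the list only *PKLR*, the red cell pyruvate kinase, and *BPGM*, which makes the 2,3-bisphosphoglycerate that loosens oxygen from hemoglobin, were at least 2-fold higher in all libraries. *PKLR* had 14.8, 11.0 and 13.6 CPM against 0.926, 0.777 and 0.349, while *PKM*, the form of most tissues, had 23.2, 26.5 and 71.8 CPM against 530, 471 and 640. Genes of DNA synthesis had a median of 0.474, 0.523 and 0.710 of their level elsewhere, and genes of G2 and mitosis 0.454, 0.459 and 0.783. Both lay above the median gene. *TOP2A*, the topoisomerase of dividing cells, had a UMI in 64.8%, 59.5% and 79.1% of erythroid cells and in 61.5%, 54.1% and 71.0% of the others. With each cell thinned to 3000 UMIs the order turned, to 37.7%, 30.04% and 55.3% against 52.3%, 45.2% and 56.6%.

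Some genes outside these pathways were as specific, and so was *STEAP3* of iron handling. Among the 12 genes with the most consistent excess were *SLC39A8*, a carrier that brings zinc and manganese into cells, and *SLC30A10*, which exports manganese. *SLC39A8* had 117, 63.5 and 107 CPM against 5.47, 2.69 and 3.06, and *SLC30A10* had 57.6, 47.5 and 97.2 against 3.21, 1.62 and 2.59. *ADIRF*, first described in fat cells, had 100.3, 56.0 and 189 CPM against 5.85, 2.41 and 12.2. *STEAP3*, the ferrireductase that readies iron for import, had 35.2, 38.6 and 51.3 against 2.45, 2.05 and 2.80.

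Markers of other cell types give a measure of mixed droplets. Summed over the listed markers, the median erythroid cell held 1, 0 and 3 such UMIs, against 8, 7 and 12 in the other kept cells. The summed level of the neural list was 4.14%, 3.26% and 8.46% of that of the other cells, and of the epithelial list 4.93%, 4.71% and 6.59%. The somite and mesenchyme list was at 4.97%, 3.86% and 7.12% and the cardiomyocyte list at 4.46%, 7.93% and 13.0%. The vessel list was at 6.01% and 5.95% at E19 but 26.5% in E16 HS. The myeloid list was at 16.7%, 3.87% and 24.3%, and the megakaryocyte list at 34.6%, 58.0% and 129%. Summed, these last lists reached at most 13.3 CPM in erythroid cells. The list of extraembryonic endoderm was at 9.08%, 4.18% and 20.8%. In E16 HS this list rested mainly on *APOA2*, detected in 60.5% of erythroid cells and 5.53% of the others. Its value there is thus no measure of mixed droplets alone. *APOA2* also counted towards the marker UMIs per cell. *ESAM* and *CLDN5* of the vessel list had 0 UMIs at E19.

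Erythroid cells differed among themselves in how much of their RNA the 4 leading genes took. The cells of each library were ranked by this share, and the upper and lower ends of the ranking, 1 in 3 cells each, were compared on UMIs outside the 4 genes. Each end held 816, 435 and 619 cells, with median shares of 62.6% against 51.3%, 59.2% against 47.4% and 43.9% against 29.0%. The lower end also held markers of other cell types, so the comparison was repeated on cells with under 3 such UMIs, with 686, 386 and 295 cells at each end. The values that follow are from this second set.

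Cells rich in the 4 genes held more of the transcripts of heme synthesis and of *FTH1*, and fewer of those for copying DNA and building ribosomes. The median gene stood at 0.913, 0.874 and 0.890 of its level at the lower end, so most genes were below 1 in each library. *ALAS2*, a gene of the rule, was 1.33, 1.36 and 1.31 times higher, *FTH1* was 1.27, 1.26 and 1.33 times higher, and *PRDX2*, the peroxiredoxin that guards hemoglobin against oxidation, was 1.24, 1.21 and 1.34 times higher. The heme synthesis list had median ratios of 1.15, 1.06 and 1.2. The iron uptake and storage list did not rise above 1 as a whole, with medians of 0.985, 0.981 and 0.885. At E19 these lay above the median gene. In it 6 of 12, 3 of 11 and 3 of 11 genes were above 1, in a comparison where most genes were below it. The 35 compared genes of S phase had medians of 0.667, 0.715 and 0.762, each below the median gene, with 0, 3 and 6 of them above 1. *MCM2*, part of the helicase that opens DNA for copying, was at 0.604, 0.408 and 0.437, and *RRM1*, which makes deoxynucleotides, at 0.616, 0.618 and 0.597. Ribosome biogenesis genes had medians of 0.723, 0.717 and 0.816.

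Mitosis did not fall with DNA synthesis. The list of G2 and mitosis had medians of 1.23, 1.12 and 0.998, above the median gene in each library. *AURKB*, a kinase of chromosome segregation, was 1.52, 1.5 and 1.43 times higher at the upper end, and *CDK1*, the kinase that starts mitosis, 1.46, 1.28 and 1.27 times. *TFRC* went the other way from *FTH1*, at 0.761, 0.563 and 0.767. Ribosomal protein genes hardly moved, with medians of 0.982, 1.04 and 1.03.

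**Figure D3:**
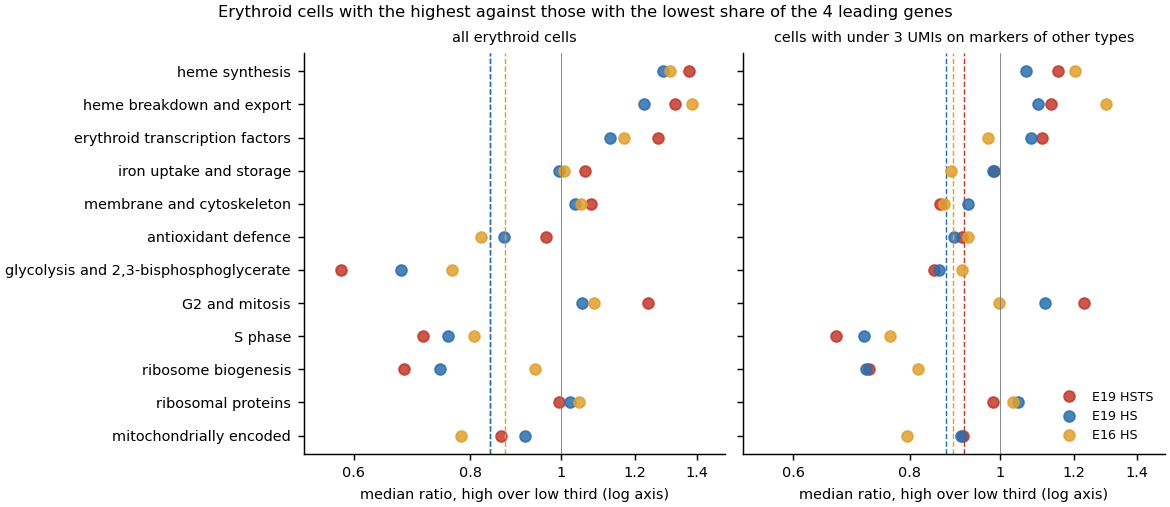
Median ratio of each gene list (log axis) between the third of erythroid cells with the highest and the third with the lowest share of the 4 leading genes, on UMIs outside these genes, per library. Dashed lines mark the median gene. S phase and ribosome biogenesis lie left of 1 and heme synthesis right of it in every library, with all cells (left) and with cells under 3 UMIs on markers of other types (right).

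The comparison of E16 HS with E19 HS asks how these cells changed over 3 days in 1 breed, from a single library a day. The main difference was in the weight of the 4 leading genes. The median erythroid cell held 5133 UMIs on them at E16 and 9494 at E19, while UMIs outside them numbered 9153 and 8474. Most other genes had a higher CPM at E16, with a median ratio of 1.79, or 0.84 on the log2 scale. Of 4569 genes compared, 1711 were at least 2-fold higher at E16 (37.4%) and 58 at least 2-fold lower (1.27%). Relative to the median gene the split was 137 higher (3.0%) and 200 lower (4.38%). TMM factors, which also allow for such a shift, gave 141 higher and 190 lower, and leaving the 4 genes out of the totals gave 673 and 121. Among the other kept cells the median ratio was 1.15, with 276 of 6829 genes higher (4.04%) and 215 lower (3.15%).

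Metallothioneins, small proteins that bind zinc and copper, gave the 3 lowest ratios at E16 among named genes that reached 50 CPM in 1 of the libraries. *MT2* had 84.0 CPM at E16 and 1775 at E19 in HS, a 21.1-fold difference (ratio 0.0473, interval 0.0454 to 0.0493). *MT1C* had 6.91 against 929 CPM and *MT1A* 1.32 against 220. The other kept cells had 34.6 CPM of *MT2* at E16 and 85.0 in E19 HS, a 2.45-fold difference. They include cells rich in the leading genes that the rule missed, 238 at E16 and 134 in E19 HS. The part of these missed cells in the difference was not tested, so it is not read as a change outside erythroid cells. *MT2* was detected in 96.4% of the E19 HS erythroid cells and in 27.4% of those at E16. At E19 the cells differed widely among themselves, from 1 UMI at the 5th percentile through a median of 23 to 98 at the 95th. *MT1A* was far more uneven, since the top 10% of the E19 HS cells held 97.8% of its UMIs.

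Some genes shared with platelets and white cells were far higher at E16 than at E19. *SRGN*, *FERMT3* and *GP1BB* did this in a list of 7 genes written after values were seen, of which 4 were at least 2-fold higher and 0 lower, where 37.4% and 1.27% of all genes were. Others of the list did not, as *PTGS1*, the cyclooxygenase of platelets, had 24.6 CPM in E19 HS against 41.5 at E16 and *RGS10*, a regulator of G protein signalling, 59.7 against 34.9. *SRGN*, the proteoglycan core of secretory granules, had 153 CPM at E16 against 3.20 in E19 HS, a ratio of 47.8 (38.2 to 60.6), and 0.472 in E19 HSTS. *FERMT3*, which activates integrins of blood cells, had 67.9 against 4.97 CPM, a ratio of 13.7 (11.4 to 16.6), and 5.75 in E19 HSTS. *SRGN* was detected in 77.3% of erythroid cells at E16 and in 5.06% of those of E19 HS, and *FERMT3* in 54.3% and 8.58%. In cells thinned to 3000 UMIs these shares were 35.1% and 1.38% for *SRGN* and 17.8% and 1.38% for *FERMT3*. The other kept cells had 5.33 and 2.13 CPM of *SRGN*. *PTPRC*, which marks white cells, had 0 UMIs in both sets of erythroid cells. *GP1BB*, a platelet receptor subunit, had 12.4 CPM at E16, where it was detected in 7.54% of erythroid cells, and 0.205 in E19 HS. The other kept cells had 10.0 and 2.22 CPM of it, so at E16 the erythroid cells stood only 1.24 times above them. The platelet gene *PPBP* had 0 UMIs in each library.

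In the genes of the red cell program the ratios varied about that of the median gene. In heme synthesis 3 of 13 genes were at least 2-fold higher at E16 and 0 lower, a lower share than the 37.4% of all genes, and the list's median ratio of 1.30 was 0.724 relative to the median gene. Among them were *ALAS1* and *CLPX*, which all tissues use. The membrane list was at least 2-fold higher in 6 of 12, against the same 37.4%, with a median of 1.97. Relative to the median gene its median was 1.09, and 1 of the 12 was at least 2-fold higher. *SPTB* stood out with a ratio of 4.03, or 2.24 relative to the median gene, and *ANK1* had a ratio of 2.89. *HBM* was lower at E16, with a ratio of 0.50 (0.464 to 0.539), while *HBQ1*, the theta globin gene, had 78.2 against 77.2 CPM. *HBB*, as annotated, was nearly missing, at 1.35 CPM at E16 and under 0.1 CPM in both E19 libraries.

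Of 14 glycolytic genes compared, 9 were at least 2-fold higher at E16 and 0 lower, where 37.4% and 1.27% of all genes were. Their median ratio was 2.62 in erythroid cells, where the median gene had 1.79, and 1.37 in the other cells, where it had 1.15. Relative to the median gene the erythroid median was 1.46, with 1 gene at least 2-fold higher and 1 lower. *LDHA*, which turns pyruvate into lactate, had 11.5, 38.8 and 184 CPM, and was detected in 17.3%, 45.2% and 83.7% of erythroid cells, or in 3.39%, 11.6% and 40.0% of thinned ones. *ENO1*, enolase, had 44.7, 62.9 and 218 CPM. *BPGM* ran against the list, at 14.1, 22.6 and 11.5 CPM.

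Cycling transcripts were higher at E16 in step with the median gene. In the G2 and mitosis list 22 of 39 were at least 2-fold higher and 0 lower, where 37.4% and 1.27% of all genes were, with a median of 2.20, or 1.23 relative to the median gene. In S phase 9 of 31 were at least 2-fold higher and 0 lower, with a median of 1.70, or 0.945 relative to it. Linker histones, which pack DNA between nucleosomes, varied. Of 6 compared in a list written after values were seen, 2 were at least 2-fold lower, *H1-2* and *H1-4*, while *H1-1* and *H1-10* had ratios of 1.11 and 1.42. *H1-2* had 189 CPM at E16 against 593 at E19, a 3.14-fold difference, but the other kept cells had 157 against 499, so it moved with the library.

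Among the other genes highest at E16, *KRT18*, *KRT19*, *COL3A1* and *COL4A1* belong to epithelium and connective tissue. *KRT19* had 148 against 29.0 CPM in erythroid cells and 2009 against 417 in the other kept cells. With cells of 3 or more UMIs on markers of other types left out, its ratio was 8.85 in place of 5.12. The median erythroid cell at E16 held 3 such UMIs against 0 at E19, and the part of mixed droplets or free RNA in these genes was not tested. *EIF4G1*, a scaffold of translation initiation, had 119 against 22.3 CPM, *USP7*, a deubiquitinase, 91.4 against 21.8, and *CLTC*, the clathrin heavy chain, 90.4 against 22.0. These 3 were about as far apart without such cells, with ratios of 5.35, 4.39 and 4.04. They were also higher at E16 in the other kept cells, with ratios of 2.41, 2.26 and 2.19.

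**Figure D4:**
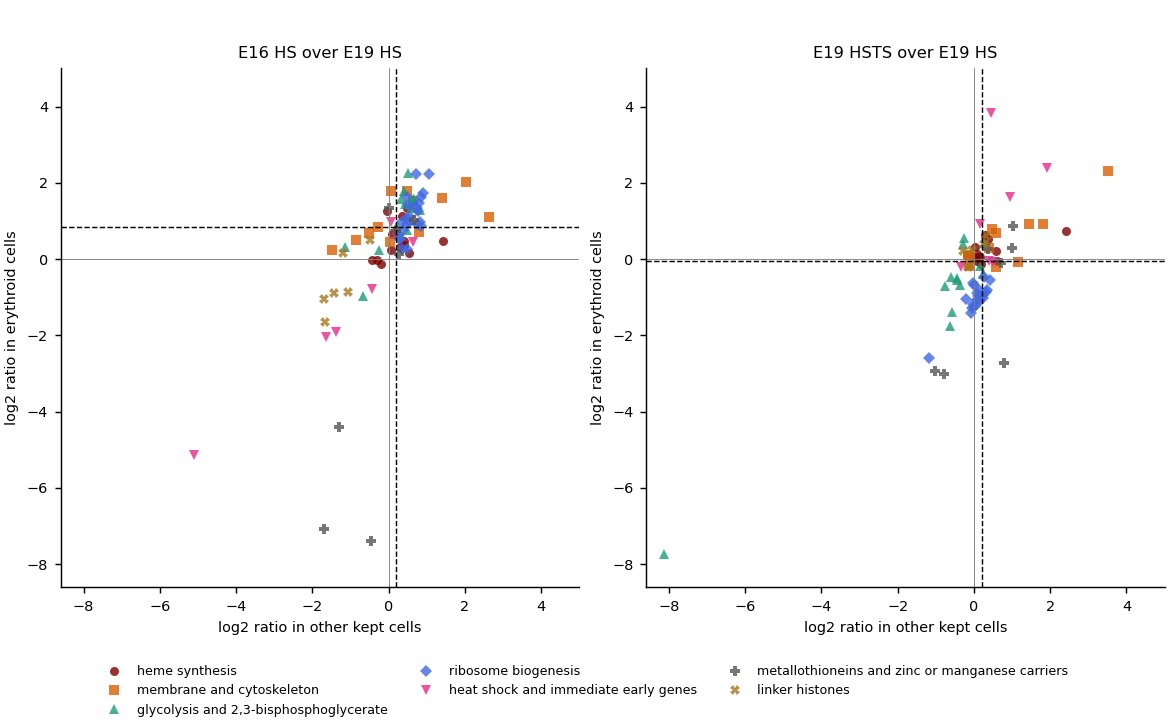
Log2 CPM ratio of genes of 7 lists between libraries, in erythroid cells (vertical axis) against the other kept cells (horizontal axis), for E16 HS over E19 HS (left) and E19 HSTS over E19 HS (right). Both panels share E19 HS. Dashed lines mark the median gene, at 0.84 and -0.05 for erythroid cells. Metallothioneins lie low in both panels, ribosome biogenesis lies under the median line in the right panel, and the point at the lower left of the right panel is *GAPDH*.

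The comparison of the breeds at E19 asks whether erythroid cells of HSTS differ from those of HS at the same age. They were closer than the 2 ages. Of 3934 genes compared, 38 were at least 2-fold higher in E19 HSTS (0.966%) and 100 at least 2-fold lower (2.54%), around a median ratio of 0.964. Relative to the median gene 49 were higher (1.25%) and 88 lower (2.24%). With the 4 leading genes left out of the totals, the split was 101 higher and 84 lower. Among the other kept cells 43 of 6942 genes were higher (0.619%) and 34 lower (0.49%).

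**Figure D5:**
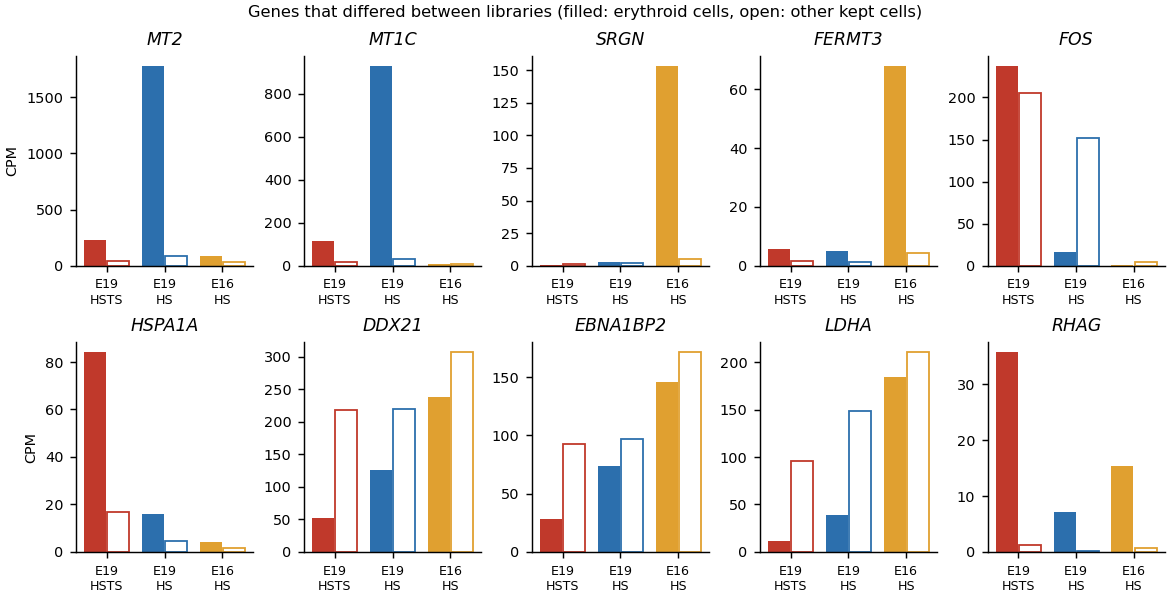
CPM of 10 genes in the erythroid cells (filled bars) and the other kept cells (open bars) of each library, each panel on its own axis from 0. *MT2* and *MT1C* peak in the erythroid cells of E19 HS, *SRGN* and *FERMT3* in those of E16 HS, and *FOS*, *HSPA1A* and *RHAG* in those of E19 HSTS. The open bars of *DDX21* and *EBNA1BP2* are nearly level at E19, where the filled bars differ.

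Metallothioneins again gave a large difference, all 3 being lower in E19 HSTS. *MT2* had 230.3 CPM against 1775, a 7.71-fold difference (ratio 0.130, 0.127 to 0.133), *MT1C* 114 against 929 and *MT1A* 33.4 against 220. E19 HS, which both comparisons share, thus had the highest levels of all 3. In the other kept cells *MT2* had 42.0 against 85.0 CPM and *MT1C* 17.9 against 30.9, while *MT1A* went the other way, at 27.3 against 15.7. The part of erythroid cells missed by the rule in these values was not tested. The metal carriers of the erythroid cells did not follow, with *SLC39A8* at 117 against 63.5 CPM, *SLC30A10* at 57.6 against 47.5 and *SLC30A1*, a zinc exporter, at 20.6 against 21.9.

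Genes that assemble ribosomes were lower in E19 HSTS as a group. Of 20 compared, 10 were at least 2-fold lower and 0 had a ratio above 1, with a median of 0.505, where 2.54% of all genes were that low. The list was written after the first of its genes had been seen, so it describes the pattern and is no independent evidence. *EBNA1BP2*, a nucleolar assembly factor, had 28.0, 74.1 and 146 CPM. *NHP2*, of the particles that modify ribosomal RNA, had 38.7, 93.9 and 184, and *DDX21*, a nucleolar helicase, 52.6, 125 and 238. In the other kept cells *EBNA1BP2* had 92.5 and 96.8 CPM at E19, *NHP2* 149 and 155, and *DDX21* 219 and 220.0, and the list had a median ratio of 1.06. The ribosomal proteins themselves had a median ratio of 0.917 in erythroid cells and 0.922 in the others, and of 46 compared 1 was at least 2-fold higher, *RPS6*, at 1367 against 442 CPM, which moved likewise in the other cells.

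Several genes of the early response to stress, but not all of those compared, were higher in E19 HSTS. *FOS*, an immediate early transcription factor, had 237, 16.7 and 0.475 CPM, and was detected in 72.5%, 15.9% and 0.700% of erythroid cells, or in 38.5%, 3.91% and 0.109% of thinned ones. The ratio at E19 was 14.2 (12.9 to 15.7), against 205 and 151 CPM, a ratio of 1.35, in the other kept cells. *HSPA1A*, an inducible heat shock protein, had 84.1 against 16.1 CPM, and *DNAJB1*, its partner, 178 against 57.5. Both were also higher in the other cells of E19 HSTS, with ratios of 3.79 and 1.94. Of 7 genes compared in this list, also written after values were seen, 3 were at least 2-fold higher and 0 lower. Of all genes 0.966% and 2.54% were. The rest varied, with *JUN* at 81.5 against 43.4 CPM, *HSPH1* at 26.5 against 27.8, *HSPB1* at 335 against 387 and the constitutive *HSPA8* at 618 against 642.

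Some red cell genes were higher in E19 HSTS. *RHAG* had 35.7 against 7.15 CPM, a ratio of 5.00, and was the 1 of 11 compared membrane genes that was at least 2-fold higher, where 0.966% of all genes were, with 0 lower. *SLC4A1* had a ratio of 1.73, *HEMGN* of 1.82 and *SLC25A37* of 1.93 (1.83 to 2.04). Of 12 genes of heme synthesis 0 passed 2-fold in either direction and 9 had a ratio above 1, with a median of 1.08. *ALAS2*, which chose the cells, had 553 against 329 CPM, and *AHSP* 1275 against 1475. *ANK1* had 30.2 against 34.7 CPM, and *HBM* was lower, at 32.6 against 79.8 CPM (ratio 0.408, 0.381 to 0.437).

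Most glycolytic genes had a ratio below 1 in E19 HSTS, in the erythroid cells as in the others. Of 13 genes 3 were at least 2-fold lower, where 2.54% of all genes were, and 0 higher, with a median ratio of 0.711, and the same genes had a median of 0.732 in the other cells. The 3 were *GAPDH*, at 1.95 against 414 CPM, which was as low in the other cells of the library (ratio 0.00356), *LDHA*, at 11.5 against 38.8, and *TPI1*, at 6.31 against 16.6. For *LDHA* the ratio was 0.296 in erythroid cells and 0.648 in the others. *HK1*, the hexokinase of red cells, had 87.6 against 59.8 CPM. *APOA1*, an apolipoprotein of liver and yolk sac endoderm, had 30.9 against 95.9 CPM in erythroid cells and 305 against 322 in the others, and its ratio fell from 0.323 to 0.109 without cells that held markers of other types. The summed markers of extraembryonic endoderm went the other way, at 93 CPM in E19 HSTS and 34.5 in E19 HS, with *AHSG* at 41.0 against 9.82, and their part in these values was not tested.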

How the data were processed

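Whole sheep embryos were dissociated, treated with a lysis buffer against red blood cells and sequenced with the 10x 3′ chemistry, per the labels, and 3′ counts were not scaled for gene length. The authors counted UMIs with Cell Ranger 6.1.2 and the deposited values are raw counts for barcodes called as cells, checked to be whole numbers. The submitters' notes also name R 4.1.2 and Seurat 4.1.1, whose output was not used here. The cell filter, the rule for erythroid cells and the gene lists were chosen with earlier results of these data known, and the lists of ribosome biogenesis, metallothioneins and metal carriers, heat shock and immediate early genes, linker histones, granule and adhesion genes, ribosomal proteins and mitochondrially encoded genes were written after values were seen.

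UMIs were summed over the erythroid cells and over the other kept cells of each library and expressed per 1000000 (CPM). Genes were compared between libraries where the mean of both CPMs was at least 5, and a ratio of at least 2 or at most 0.5 was counted. Against the other kept cells the mean over the 6 sums had to reach 5. Intervals are exact at the 95% level (conditional binomial for ratios, Clopper-Pearson for shares). With 1 library a condition no test was made. The interval code was tested on simulated data.

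The text names listed genes, the 10 with the highest erythroid CPM, the 12 with the highest smallest ratio to the other cells over the 3 libraries (at least 20 CPM in each), and for each comparison the 10 with a symbol and the largest ratio in each direction, of at least 50 CPM in the higher library. Results for some of these genes are not reported here. Doublets were not called, and mixed droplets were measured with markers of other types. Thinning drew from all UMIs of a cell, those on the 4 leading genes included. Thinned erythroid cells thus held fewer UMIs on other genes than thinned other cells, and fewer at E19 than at E16. The alternatives were other thresholds of the rule, other cell filters, thinning to 3000 UMIs, a window of 10000 to 20000 UMIs, TMM factors (edgeR 4.0.16 in R 4.3.3), genes left out of the totals, other limits on low values and cells with 3 or more UMIs on other markers left out. Dividing ratios by the median gene, leaving out the 4 leading genes, the rule of at least 10% of UMIs on these and the rule of 1 UMI each in thinned cells were added after seeing the data. Work was done in Python 3.11.15 with numpy 2.4.6, scipy 1.17.1, pandas 2.3.3 and matplotlib 3.10.9. No sequences and no coordinates of the build of these files were used here.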

Additional observations from a re-analysis of the deposited data

Results flagged for a closer look

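Barcodes above the limit of 30000 UMIs were left out of the kept cells, yet many met the rule for erythroid cells. This was the case for 135 of 171 such barcodes in E19 HSTS, or 78.9% (exact binomial interval 72.1 to 84.8%), for 97 of 125 in E19 HS, or 77.6% (69.3 to 84.6%), and for 56 of 312 in E16 HS, or 17.9% (13.8 to 22.7%). They stood out as a signal in barcodes that the main comparisons left out, though some of the alternative shares below include them. At E19 the erythroid share among them was well above the 25.5% and 12.3% of the kept cells, while at E16 it was near the 16.4% of the kept cells. The rule asks for a number of UMIs and is met more easily by deeper barcodes, and the part of doublets was not tested. Among barcodes with over 10% mitochondrial UMIs, 2, 0 and 11 met the rule.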

How the results depend on the processing

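No paired analysis was possible because each condition has 1 library, and for the same reason no replicate could be left out. The erythroid shares, given for HSTS and then for HS at E19 and at E16, were 22.2%, 9.69% and 13.2% with at least 10 *AHSP* and 4 *ALAS2* UMIs, 26.7%, 13.1% and 17.7% with at least 3 and 1, 29.2%, 14.0% and 17.8% with 500 to 6000 genes and under 5% mitochondrial UMIs, 23.3%, 11.6% and 15.2% of all deposited barcodes, 27.8%, 13.5% and 18.4% by 10% of UMIs on the 4 leading genes, 22.8%, 8.97% and 14.5% with 1 UMI of each in thinned cells, and 4.76%, 1.91% and 5.71% with the rule on cells thinned to 3000 UMIs, the 1 setting in which E16 HS was highest. Without an upper limit on genes and UMIs they were 26.4% and 13.0% at E19. For E16 HS against E19 HS, the 1711 higher and 58 lower genes became 141 and 190 with TMM factors, 673 and 121 without the 4 leading genes, 137 and 200 relative to the median gene, 674 and 23 at a mean of at least 20 CPM and 4872 and 525 without a limit. For E19 HSTS against E19 HS, the 38 higher genes became 101 without the 4 leading genes and 72 in thinned cells, and the 38 and 100 became 13 and 53 at 20 CPM and 1087 and 786 without a limit. Against the other cells, the 126 higher and 2500 lower genes became 449 and 1077 relative to the median gene. The counts under the other alternatives stayed within 1.5 times. Of 398 values for single named genes under alternatives, 256 stayed within their counting interval, 142 moved beyond it and 0 changed direction. The intervals leave out the spread between embryos, and genes under about 5 CPM in erythroid cells were not compared.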

Other observations

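Erythroid cells held a few transcripts of other programs at levels above those of the cells around them. These genes were chosen after their values were seen. *PTGS1*, the cyclooxygenase of platelets, had 26.0, 24.6 and 41.5 CPM in erythroid cells (HSTS and HS at E19, then HS at E16) against 3.12, 3.40 and 4.01 in the other kept cells, and was detected in 35.8%, 34.4% and 43.0% of erythroid cells, or in 8.26%, 6.13% and 11.1% of those thinned to 3000 UMIs, where the others had 0.874%, 0.978% and 1.199%. *RGS10*, a regulator of G protein signalling, had 46.4, 59.7 and 34.9 CPM. *TSPO*, an outer mitochondrial membrane protein that binds porphyrins, was detected in 99.6%, 100% and 99.7% of erythroid cells and in 16.5%, 33.7% and 27.9% of the others. *GADD45A*, a growth arrest gene, was detected in 84.4%, 83.5% and 76.5% against 21.0%, 18.3% and 24.1%. The erythroid cells were deeper than the others, and in thinned cells *GADD45A* was detected in 32.6%, 27.6% and 28.7% against 10.8%, 10.3% and 11.8%, and *TSPO* in 90.8%, 98.0% and 91.6% against 9.60%, 21.1% and 14.0%.

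*APOA2*, an apolipoprotein of the extraembryonic endoderm, had 37.9, 21.2 and 84.8 CPM in the erythroid cells, and was detected in 60.5% of those at E16. In the other kept cells it had 359, 329 and 84.0 CPM. *AFP* and *TTR*, of the same marker list, had 2.30 and 2.19 CPM in the erythroid cells of E16 HS.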
